A study of Mus musculus with 4 samples.

Results

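The enzymes described here carry glycine, serine and threonine into the folate pool of one-carbon units, and were read on 4 arrays of mouse embryonic stem (ES) cells. Of 9 listed genes (Tdh, Gcat, Gldc, Amt, Gcsh, Shmt1, Shmt2, Mthfd1 and Mthfd2), 6 had probe sets annotated to them alone, with 15 probe sets among the 18193 genes named. The 9 were listed by symbol, with earlier results of these data known. Gldc and Gcsh had 1 probe set each, Mthfd2 had 2, Mthfd1 had 3, and Shmt1 and Shmt2 had 4 each. All 15 passed the filter on low signals. Tdh and Amt were not analysed here, and Gcat was represented only by probe sets that also name Galr3.

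Threonine dehydrogenase (Tdh) and its partner Gcat split threonine into glycine and acetyl-CoA in mitochondria, a route known for its high activity in mouse ES cells. The glycine cleavage system then breaks glycine down and passes its methylene carbon to tetrahydrofolate: Gldc removes the carboxyl group, the lipoylated carrier Gcsh holds the remainder, and Amt hands the carbon on. Serine hydroxymethyltransferases (Shmt1 in the cytosol, Shmt2 in mitochondria) move a carbon between serine and glycine, and the Mthfd enzymes oxidise or reduce the folate-bound carbon that purine, thymidylate and methionine synthesis draw on.

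All cells were E14.1 ES cells that carried, at Oct3/4, an inserted cassette for blasticidin resistance, and were grown in medium with serum, non-essential amino acids, LIF and blasticidin. The cells labelled Sall4 null (delta/-, line KO1) and the Sall4 heterozygous cells (flox/-, line HET18) were each grown on feeder cells, which the sample titles call MEF, and on gelatin without feeders. This gave 4 groups of 1 array, without replicates. Each genotype was 1 line, so that genotype and line cannot be told apart. In such bulk RNA, fewer cells of a type and less RNA per cell cannot be told apart either. With so few arrays the precision of each value is limited.

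Sall4 went against its label on its brightest probe set, the only one of the gene described here. That probe set read 1670.5 in cells labelled null, against 1126.5 in heterozygous cells, without feeders, and 1452.4 against 780.8 on feeders (fitted log2 difference 0.73, SE 0.12, limma adjusted p = 0.152). The labels do not say which part of the gene was deleted, so every direction below refers to the arrays labelled null. Pou5f1, which encodes Oct3/4, had a fitted difference of -0.15 (limma adjusted p = 0.721), with opposite signs in the 2 pairs. It read 977.0 in cells labelled null against 1284.2 in heterozygous cells without feeders, and 1187.4 against 1112.1 on feeders. All 20 ES markers listed, Sall4 and Pou5f1 among them, were above the median signal of 17.1 on each array. Their summed signal was 26214 in cells labelled null and 31300 in heterozygous cells without feeders, and 29614 and 32371 on feeders. Of 30 fibroblast markers 29 were matched, and none was at 0 on any array. Without feeders, 5 of the 29 were at or under the median signal in cells labelled null and 11 in heterozygous cells. On feeders it was 0 in both. The summed signal of the fibroblast markers was 13644 in cells labelled null and 6075 in heterozygous cells without feeders, and 38075 and 28927 on feeders. Fibroblast markers were thus higher on the arrays labelled null in both feeder conditions, with a median log2 difference of 1.18 in the pair without feeders (25 of 29 higher) and 0.47 in the pair on feeders (28 of 29 higher). Their part in the results below was not tested.

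The promoters of Gldc and Mthfd2 are shown because Gldc had the largest fitted difference between genotypes among the members and Mthfd2 the largest by feeders. Each is the 250 bases before the transcription start used by the RefSeq table (GRCm38.p6), 5′ to 3′ on the gene's own strand, which is the minus strand for both. Capitals mark CCAAT boxes, read as CCAAT or, on the opposite strand, ATTGG. The Gldc window is chr19:30175442-30175691, directly ahead of the annotated locus (chr19:30098441-30175441), and the Mthfd2 window is chr6:83317605-83317854, inside the annotated locus (chr6:83305704-83326011).
Gldc: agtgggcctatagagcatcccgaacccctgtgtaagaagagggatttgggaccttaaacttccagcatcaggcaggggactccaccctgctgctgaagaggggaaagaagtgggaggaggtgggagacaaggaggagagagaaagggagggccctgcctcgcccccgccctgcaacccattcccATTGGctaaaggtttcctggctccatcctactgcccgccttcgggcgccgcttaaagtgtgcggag
Mthfd2: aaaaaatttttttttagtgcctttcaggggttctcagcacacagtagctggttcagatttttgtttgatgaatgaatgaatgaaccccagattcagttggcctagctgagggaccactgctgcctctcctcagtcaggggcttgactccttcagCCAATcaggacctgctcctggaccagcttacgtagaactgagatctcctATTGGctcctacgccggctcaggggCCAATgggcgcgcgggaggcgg
The Gldc window held 1 CCAAT box and 8 CpG dinucleotides, and the Mthfd2 window held 3 CCAAT boxes and 7 CpG dinucleotides. CCAAT was found on either strand in the windows of 5 of the 6 measured members, all but Shmt2, and in 33.8% of 32851 promoter windows of the same length. GGGCGG, the GC box, was found in 4 of the 6 and in 32.7% of all windows. These motifs were picked after the sequences were seen. The amino acid response motif TGATGNAA (CARE) and the E-box CACGTG were found in 0 of the 6, and in 3.45% and 6.02% of all windows. None of these motifs contains another. A match is a description of the letters and not a binding site.

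The first comparison asked how the enzymes differed between cells labelled null and heterozygous cells. Gldc, the decarboxylase of the glycine cleavage system, had the largest difference of the 6. It read 235.7 in cells labelled null, against 762.1 in heterozygous cells, without feeders, and 395.3 against 837.3 on feeders. Both arrays labelled null lay below both heterozygous arrays. The signal was 3.19-fold lower without feeders and 2.11-fold lower on feeders, and the fitted log2 difference was -1.37 (SE 0.18, limma adjusted p = 0.124). Gldc was the 1 member at least 1.5-fold lower in both pairs, a rule with no test that 2.49% of the 12485 tested genes met.

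Gcsh, the lipoylated carrier on which the glycine cleavage reaction runs (chr8:116981967-116993498), was lower too, by less. It read 1079.2 in cells labelled null against 1607.9 in heterozygous cells without feeders, and 1077.8 against 1477.3 on feeders. Both arrays labelled null lay below both heterozygous arrays. The fitted log2 difference was -0.51 (SE 0.10, limma adjusted p = 0.178), or 1.49-fold and 1.37-fold lower in the 2 pairs.

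The serine hydroxymethyltransferases were less uniform. The brightest Shmt2 probe set (chr10:127517123-127522444), of the mitochondrial enzyme, read 402.8 in cells labelled null and 479.8 in heterozygous cells without feeders, and 399.2 and 532.1 on feeders. The fit gave a log2 difference of -0.33 (SE 0.14, limma adjusted p = 0.424). Another Shmt2 probe set was 1.33-fold and 1.39-fold lower, and one more was 1.22-fold and 1.13-fold lower. The dimmest of the 4 Shmt2 probe sets ran the other way, at 35.1 in cells labelled null against 31.1 in heterozygous cells without feeders and 51.2 against 45.5 on feeders. Shmt1 (chr11:60788897-60811265), the cytosolic enzyme, showed no common direction across the pairs. Its brightest probe set read 360.2 in cells labelled null and 465.5 in heterozygous cells without feeders, but 405.3 and 327.8 on feeders. All 4 Shmt1 probe sets were lower in cells labelled null without feeders and higher on feeders, so the fitted difference was near 0 (-0.03, SE 0.20, limma adjusted p = 0.968). These 4 probe sets measure 1 gene on the same 4 arrays and are not 4 independent observations.

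Mthfd1, the cytosolic folate enzyme with dehydrogenase, cyclohydrolase and synthetase activities (chr12:76254406-76319820), was lower in cells labelled null by a small amount. Its brightest probe set read 1048.0 in cells labelled null against 1210.9 in heterozygous cells without feeders, and 937.2 against 1198.3 on feeders. The fitted log2 difference was -0.28 (SE 0.11, limma adjusted p = 0.381). The 3 Mthfd1 probe sets gave different sizes: one of the other two was 1.32-fold and 1.24-fold lower, and the dimmest 2.72-fold lower without feeders and 1.46-fold lower on feeders.

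Mthfd2, the mitochondrial dehydrogenase and cyclohydrolase that is prominent in embryonic and proliferating cells, was also lower in cells labelled null. Its brightest probe set read 129.6 in cells labelled null against 189.1 in heterozygous cells without feeders, and 254.1 against 541.7 on feeders. The other probe set read 95.2 against 196.1 without feeders and 234.3 against 492.6 on feeders. Within each feeder condition the array labelled null was the lower one, although the array labelled null on feeders exceeded the heterozygous array without feeders. The brightest probe set gave a fitted log2 difference of -0.80 (SE 0.19, limma adjusted p = 0.23), while the other was 2.01-fold and 2.08-fold lower.

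**Figure D1:**
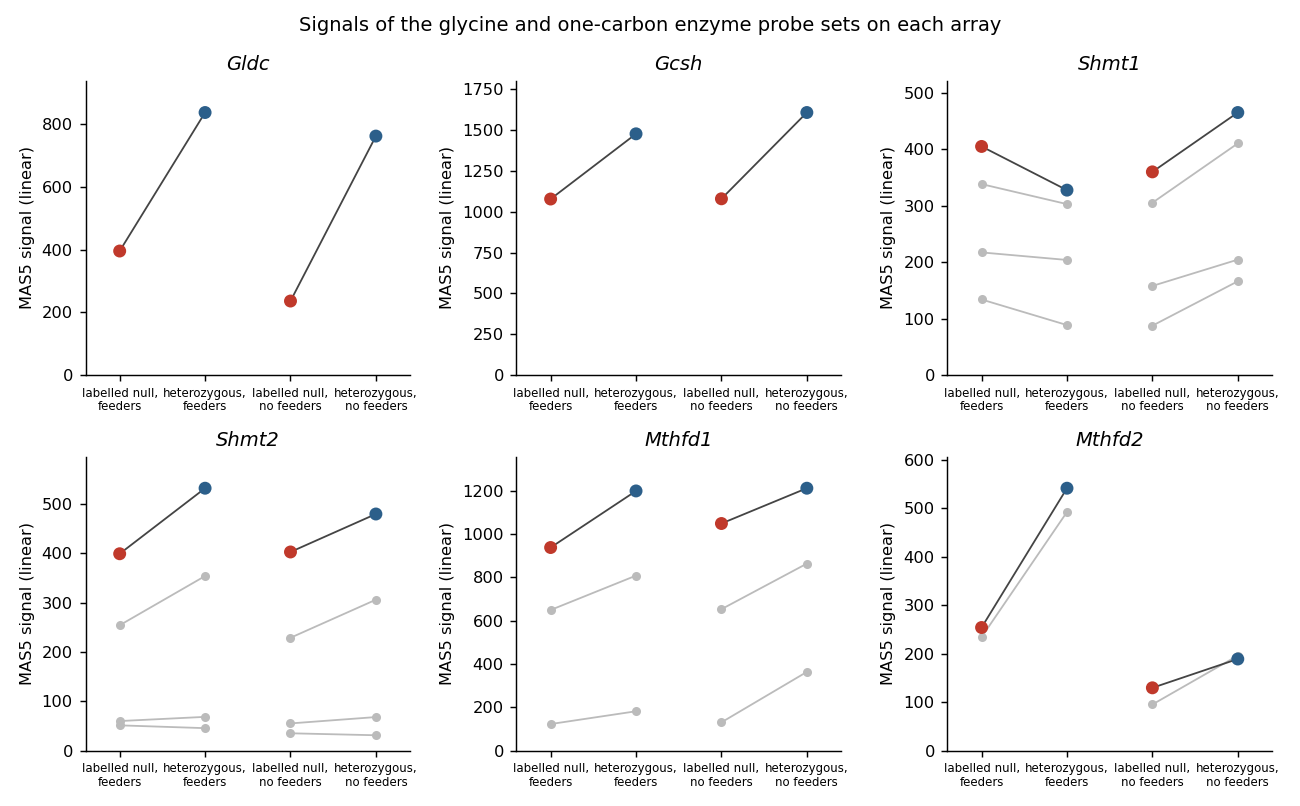
Deposited MAS5 signal (linear axis) of the probe sets of the 6 measured members on the 4 arrays, with lines joining the pair of genotypes in each feeder condition; red (labelled null) and blue (heterozygous) points are the brightest probe set and grey points the others. Gldc reads 235.7 and 395.3 on the arrays labelled null and 762.1 and 837.3 on the heterozygous arrays, and Mthfd2 has its 2 highest values on feeders.

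Across the 6 members, 5 were lower in both pairs and Shmt1 had opposite signs. Over all tested genes, 29.1% were lower in both pairs at any size. The median over the members was -0.45 on the log2 scale without feeders and -0.43 on feeders, beside 0.00 and 0.01 for all tested genes. The limma test called 0 of the 6 after adjustment over all genes, where 0.032% of tested genes were called. At an unadjusted p under 0.05 it called 4 of the 6 (Gldc, Gcsh, Mthfd1 and Mthfd2), where 12.3% of tested genes were called. By probe set, 10 of 15 were lower in both pairs. No share over all probe sets was taken, and probe sets of the same gene are not independent. ES markers were lower on the arrays labelled null as well, with median log2 differences of -0.31 (2 of 20 higher) in the pair without feeders and -0.20 (8 of 20 higher) in the pair on feeders. With each array centred on the ES markers, Gldc was called (limma adjusted p = 0.001), a setting in which 224 of all tested genes were called. The fitted difference of Gldc was -1.34 in that setting, beside -1.37 in the main fit. The prior degrees of freedom of limma were infinite in that setting, beside 4.75 in the main fit.

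**Figure D2:**
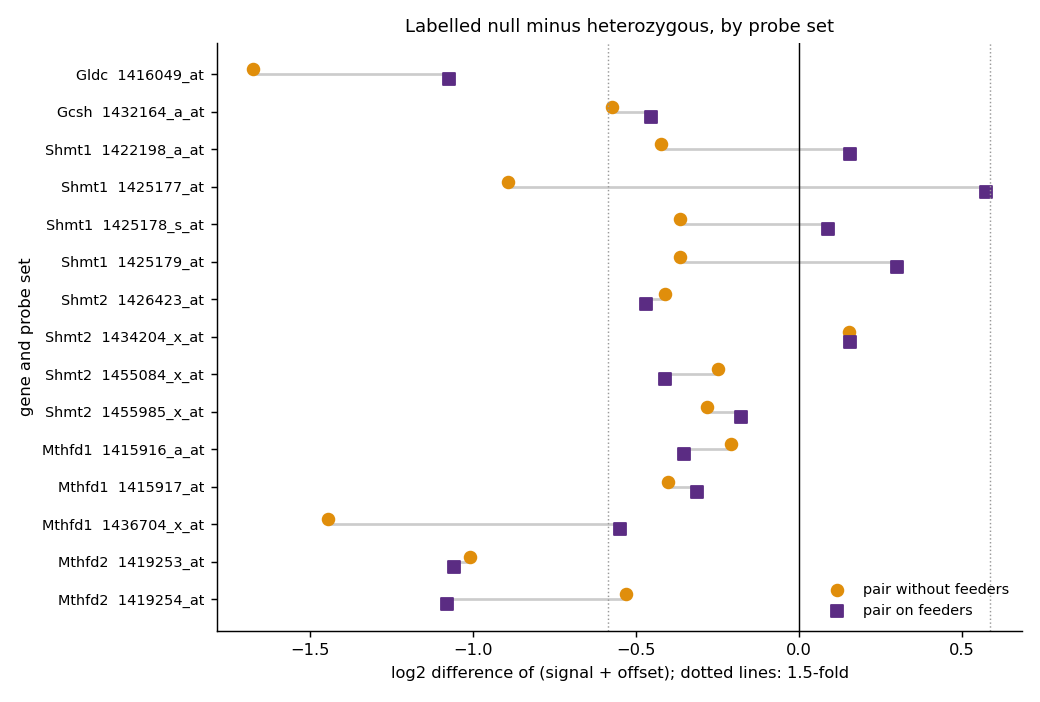
Log2 difference of (signal + 4.6), labelled null minus heterozygous, for the 15 probe sets of the 6 members, with circles and squares for the 2 feeder conditions named in the legend and dotted lines at 1.5-fold. Of the 15 probe sets, 10 lie below 0 in both conditions, and the 4 of Shmt1 lie on either side of 0.

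The second comparison asked how the same enzymes differed between cells on feeders and cells without them. Fibroblast markers were high on the arrays with feeders: Col1a1, a fibroblast collagen, read 1135.6 on feeders against 36.0 without in cells labelled null, and 626.6 against 1.5 in heterozygous cells. A difference by feeders in ES cells and a contribution of feeder RNA cannot be told apart here.

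Mthfd2 rose with feeders. In cells labelled null its brightest probe set read 254.1 on feeders and 129.6 without, and in heterozygous cells 541.7 and 189.1. Within each genotype the array on feeders was the higher one, by 1.93-fold in cells labelled null and 2.82-fold in heterozygous cells. The fitted log2 difference was 1.22 (SE 0.19, limma adjusted p = 0.0292). The other probe set was 2.39-fold and 2.48-fold higher (adjusted p = 0.00811 in a fit over every probe set). The call was lost without the filter on low signals (adjusted p = 0.0614), with a filter at the 60th percentile (0.0622) and without the variance trend (0.119). Mthfd2 was the 1 member of 6 called, against 4.77% of tested genes in either direction, 3.88% higher and 0.881% lower. It was also the 1 member at least 1.5-fold higher in both pairs, which 7.95% of tested genes were.

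The other members did not pass the test. Gldc read 395.3 on feeders and 235.7 without in cells labelled null, and 837.3 and 762.1 in heterozygous cells (fitted log2 difference 0.43, SE 0.18, limma adjusted p = 0.239). The feeder difference of Gldc was thus 0.73 in cells labelled null and 0.14 in heterozygous cells, and this contrast was not tested. On the brightest probe sets, Gcsh had a fitted difference of -0.06, Mthfd1 of -0.09, Shmt2 of 0.07 and Shmt1 of -0.17. That of Shmt1 joined 0.17 in cells labelled null and -0.50 in heterozygous cells. The dimmest Mthfd1 probe set was 1.06-fold lower on feeders in cells labelled null and 1.98-fold lower in heterozygous cells. The dimmest Shmt2 probe set was 1.41-fold and 1.40-fold higher. The remaining probe sets of Mthfd1 and Shmt2 differed by at most 1.15-fold. At an unadjusted p under 0.05, 1 of the 6 passed, where 21.8% of tested genes did. Higher in both pairs at any size were 2 of the 6, against 37.1% of tested genes. By probe set it was 6 of the 15, a count with no share over all probe sets beside it. The members' median was 0.08 in cells labelled null and 0.06 in heterozygous cells, beside 0.04 and 0.03 for all tested genes.

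**Figure D3:**
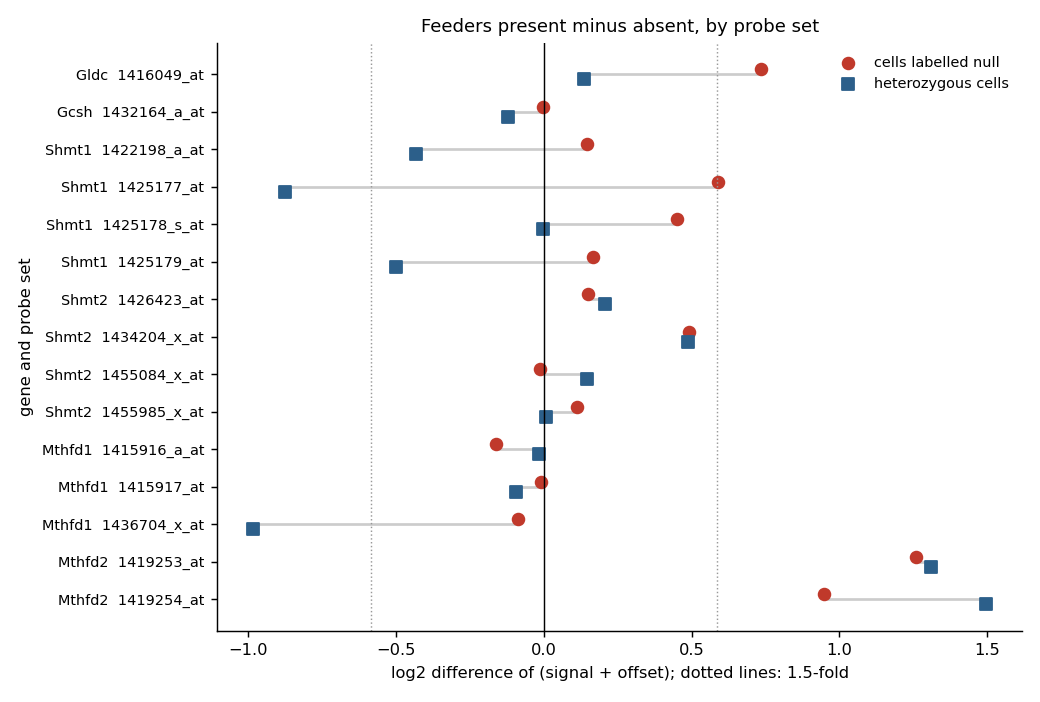
Log2 difference of (signal + 4.6), feeders present minus absent, for the 15 probe sets of the 6 members, with circles for cells labelled null and squares for heterozygous cells, and dotted lines at 1.5-fold. Both Mthfd2 probe sets lie above 0.9 in both genotypes.

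A wider list of 78 genes of the same metabolism was read the same way: 72 had probe sets of their own and 64 passed the filter. Between genotypes the list had a median of -0.13 in the pair without feeders and -0.09 in the pair on feeders (log2), and 30 of 64 genes were lower in both pairs, where 29.1% of all tested genes were. The limma test called 0 of 64 (0.032% of all tested genes), with 19 at an unadjusted p under 0.05 (12.3% of all tested genes). Past 1.5-fold in both pairs were 2 lower genes and 1 higher, where 2.49% of all tested genes were lower and 1.47% higher by that rule, so both counts were near the background. With quantile normalization the split was 5 lower and 1 higher, with median centring 6 lower and 1 higher, and with ES marker centring 3 lower and 0 higher. The share of all tested genes was not counted under these scalings, so these splits have no background beside them.

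Of the lower genes, Slc38a4 is a sodium-coupled transporter of neutral amino acids, and read 487.2 in cells labelled null against 989.3 in heterozygous cells without feeders, and 300.7 against 824.8 on feeders (fitted log2 difference -1.23, SE 0.15, limma adjusted p = 0.107). As for Gldc, it was called with each array centred on the ES markers (limma adjusted p = 0.00448, with infinite prior degrees of freedom). Its fitted difference in that setting was -1.2. Aldh1l1, the cytosolic enzyme that oxidises formyl-tetrahydrofolate, was dim, at 17.6 against 29.8 without feeders and 27.0 against 57.6 on feeders. Mthfd2l, a mitochondrial relative of Mthfd2, was the higher gene, at 62.5 in cells labelled null against 37.8 in heterozygous cells without feeders and 59.2 against 34.3 on feeders (fitted log2 difference 0.69, limma adjusted p = 0.314). Its sign was opposite to that of Mthfd2. With the mean of all probe sets of a gene, the fitted difference was -0.13 in place of -0.80 for Aldh1l1 and 0.28 in place of 0.69 for Mthfd2l.

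The 3 enzymes that make serine from a glycolytic intermediate were each lower in cells labelled null in both pairs, where 29.1% of all tested genes were. Psat1, the aminotransferase, read 853.9 in cells labelled null against 1185.3 in heterozygous cells without feeders, and 1226.1 against 2130.9 on feeders (limma adjusted p = 0.165). Psph, the phosphatase of the last step, read 202.0 against 299.9 without feeders and 339.6 against 555.3 on feeders (limma adjusted p = 0.226). Phgdh, the dehydrogenase of the first step, was named after its values were seen. It read 520.5 against 537.2 without feeders and 526.9 against 734.6 on feeders (limma adjusted p = 0.564). Of 8 tested transporters of glycine, serine and threonine 6 were lower in both pairs, beside the same 29.1% of all tested genes. Of 12 genes of purine synthesis, a consumer of folate-bound carbons, 4 were lower in both pairs and 3 higher, where 30.5% of all tested genes were higher in both, and 0 passed 1.5-fold.

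By feeders, 5 of the 64 genes were called, 4 higher and 1 lower, where 4.77% of all tested genes were called, 3.88% higher and 0.881% lower. Aldh1l2, the mitochondrial counterpart of Aldh1l1, rose to 85.9 on feeders, against 11.6 without, in cells labelled null, and to 92.8 against 19.3 in heterozygous cells (fitted log2 difference 2.25, SE 0.25, limma adjusted p = 0.00956). Slc1a4, a transporter of serine and other neutral amino acids, rose to 97.3 against 39.5 in cells labelled null and to 128.5 against 39.6 in heterozygous cells (limma adjusted p = 0.0253). Psph and Psat1 rose as well, by fitted log2 differences of 0.81 and 0.68 (limma adjusted p = 0.045 and 0.037). Each of these 2 calls held in 5 of 11 settings, and both were lost with an offset of 1 (adjusted p = 0.0569 and 0.0509) and with ES marker centring (0.14 and 0.216). Folr1, a folate receptor at the cell surface, fell to 395.9 on feeders, against 736.5 without, in cells labelled null, and to 389.6 against 702.7 in heterozygous cells (limma adjusted p = 0.0238). Without the variance trend 1 gene of the wider list was called, where 183 of 12485 tested genes were. With no filter it was 2, beside 269 of 18193, and with the stricter filter 2, beside 268 of 9416.

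Past 1.5-fold in both pairs were 7 higher genes (Aldh1l2, Slc1a4, Psph, Slc1a5, Srr, Ggh and Slc6a9) and 1 lower (Folr1), where 7.95% of all tested genes were higher and 2.03% lower by that rule, so both counts were near the background. With quantile normalization the split was 4 higher and 3 lower, and with median or ES marker centring 4 higher and 2 lower. These splits too have no share of all tested genes under the same scaling beside them. Slc1a5, a glutamine and neutral amino acid transporter, read 60.8 on feeders against 18.3 without in cells labelled null, and 91.9 against 48.6 in heterozygous cells (limma adjusted p = 0.0636). Its fitted log2 difference was 1.19, and 0.29 with the mean of its probe sets (adjusted p = 0.545). Srr (serine racemase), Ggh (a hydrolase of folate polyglutamates) and Slc6a9 (a glycine transporter) had fitted differences of 1.00, 0.75 and 0.73, with adjusted p of 0.131, 0.102 and 0.129. With the mean of probe sets these were 0.57, 0.75 and 0.55. The value of 1.00 for Srr joined 0.61 in cells labelled null and 1.40 in heterozygous cells. The list's median was 0.13 in cells labelled null and -0.03 in heterozygous cells. On the same arrays the fibroblast markers were higher on feeders by medians of 3.08 in cells labelled null and 4.10 in heterozygous cells, and the ES markers by 0.26 and 0.06. Their part in these differences was not tested.

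**Figure D4:**
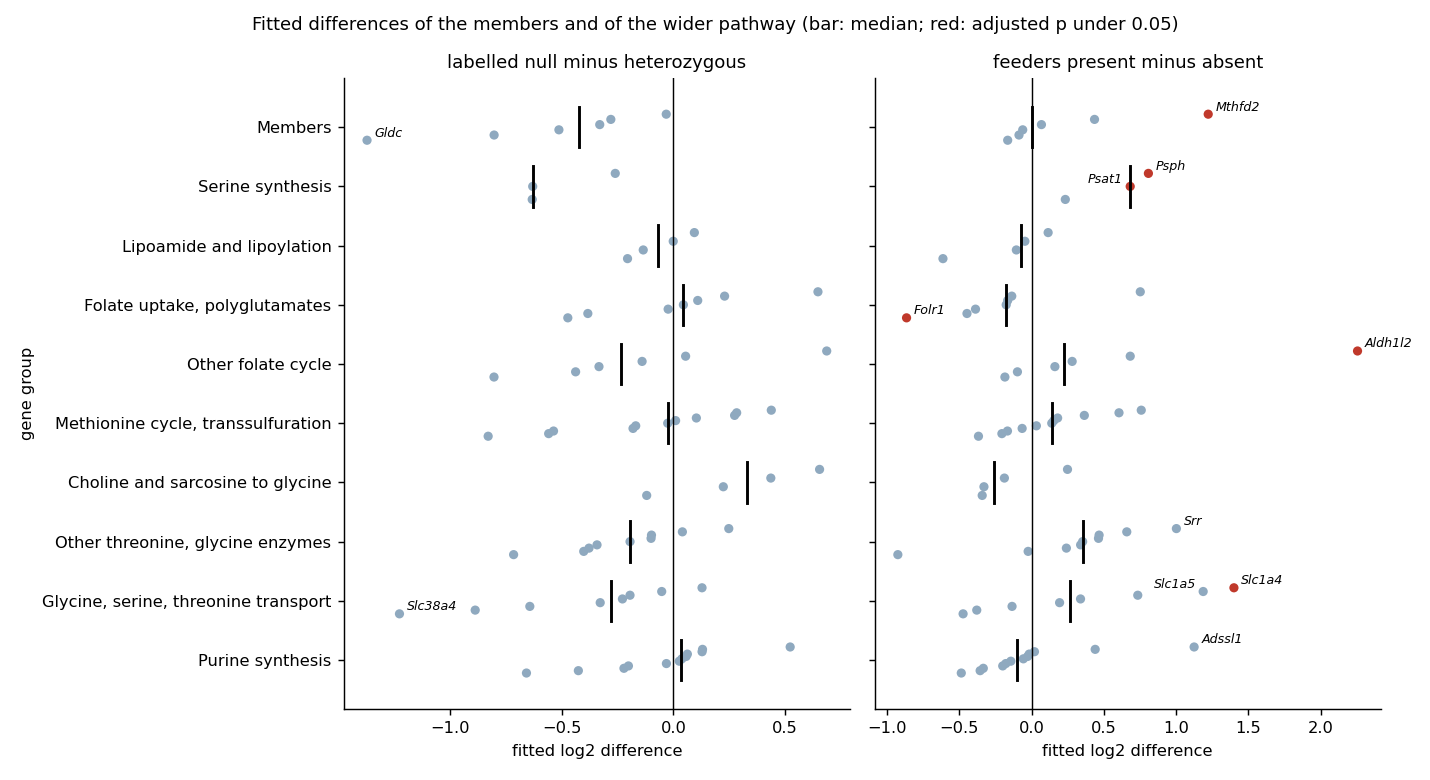
Fitted log2 differences of the 6 measured members and of the 64 tested genes of the wider list, by role, labelled null minus heterozygous on the left and feeders present minus absent on the right. Each point is a gene, bars are medians and red marks an adjusted p under 0.05. Red points are on the right panel alone: Mthfd2 and 5 genes of the wider list.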

How the data were processed

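Total RNA of 4 mouse ES cell cultures was hybridised to 1 Affymetrix array each. The deposited values are linear signal intensities made by the authors with MAS5, per the submitters' processing notes, which give no version; the scanner software settings and genome build are not given in the sources used here. The 2% trimmed mean was 100.0 on every array, so no scaling was added. Of 45101 probe sets, 64 controls were left out, 34945 had 1 symbol in the platform annotation, 932 had several and 9160 were not listed.

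Signals were taken as log2(signal + 4.6), 4.6 being the 25th percentile, which understates the change of dim genes. Each gene was read by its brightest probe set. Genes under the 40th percentile (log2 3.81, a signal of 9.46) were dropped. The remaining 12485 were tested with limma 3.58.1 in R 4.3.3 (genotype and feeder terms, variance trend, two-sided, Benjamini-Hochberg adjustment over all genes, threshold 0.05). The 1 residual degree of freedom holds the interaction of genotype with feeders, and the prior added 4.75, so p-values do not measure the spread of replicate cultures. A rule of size with no test counted genes at least 1.5-fold apart in the same direction in both pairs, provided that in each pair the higher signal exceeded the median, 17.1.

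The members, lists and tests were chosen with earlier results of these data known. Named are all members, the wider-list genes past 1.5-fold in both pairs or called, and Sall4 and Pou5f1. Phgdh, Dld, Lias, Lipt1, Lipt2 and the fibroblast marker Col1a1 fall outside this rule and were named after their values were seen. A further rule, for genes most like Tdh, could not be applied. Alternatives changed the offset, filter, scaling, probe set, fold and variance trend and left out arrays. Those for the named wider-list genes, and for the count of such genes called by feeders, were added after seeing the data. Promoter sequences are from RefSeq (GRCm38.p6) and matched all 6 measured members.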

Additional observations from a re-analysis of the deposited data

Results flagged for a closer look

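Shmt1 moved in opposite directions in the 2 feeder conditions on each of its 4 probe sets. The genotype difference without feeders minus that on feeders was -0.67 on the log2 scale for the brightest probe set (-0.37 and 0.30). It was -1.47 (-0.89 and 0.57), -0.58 (-0.42 and 0.16) and -0.45 (-0.36 and 0.09) for the others. The same 4 arrays give the feeder difference in cells labelled null minus that in heterozygous cells, which is the same quantity with the sign turned: 0.67, 1.47, 0.58 and 0.45. The brightest Shmt2 probe set had a feeder difference of -0.01 in cells labelled null and 0.15 in heterozygous cells, a gap of -0.16. With 1 array per group none of these differences was tested.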

How the results depend on the processing

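Between genotypes, 1 member (Gldc) was called in place of 0 with each array centred on the ES markers, where the prior degrees of freedom were infinite. Past 1.5-fold in both pairs were 2 members in place of 1 with median centring and with the mean of probe sets, and 2 of 15 with every probe set. The count for the wider list was 3. It was 5 with an offset of 1, 6 with quantile normalization, 7 with median centring, and 1 each with an offset at the median signal, with the mean of probe sets and at 2-fold. By feeders, the member count called was 1. It was 0 without the filter, with a filter at the 60th percentile and without the variance trend, and 2 of 15 with every probe set. Past the fold were 2 of 15 with every probe set and 0 at 2-fold. Shares of all tested genes past the fold were taken in the main setting alone. The wider list had 8 past the fold, and 5 with an offset at the median signal or the mean of probe sets and 2 at 2-fold. It had 5 of 64 called, and 3 of 64 with an offset of 1. Without the filter it was 2 of 72, with the stricter one 2 of 53 and without the trend 1 of 64. The count over all genes by feeders fell in these settings too, as given below. Over all genes, 4 of 12485 were called between genotypes (0 without the filter, with the stricter one or without the trend). By feeders 595 of 12485 genes were called, and 433 of 12493 with an offset of 1. It was 269 of 18193 without the filter, 268 of 9416 with the stricter one and 183 of 12485 without the trend. With every probe set, 14 of 22986 probe sets were called between genotypes and 1354 of 22986 by feeders. Fewer or more genes tested and another prior are part of these settings; the cause of the other changes was not tested.

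Leaving out 1 array leaves 1 pair and no test. The genotype difference of Shmt1 then ran from -0.37 to 0.30, its feeder difference from -0.50 to 0.17 and that of Shmt2 from -0.01 to 0.15. Over the 10 other alternatives the genotype difference of Gldc lay between -1.43 and -1.34 (adjusted p 0.001 to 0.41), that of Mthfd2 between -0.92 and -0.77, and that of Mthfd1 between -0.55 and -0.25. The feeder difference of Mthfd2 lay between 1.15 and 1.25 (adjusted p 0.00384 to 0.119). Of the genes called by feeders, Aldh1l2 was called in 11 of 11 settings, Folr1 in 10, Slc1a4 and Mthfd2 in 8 each, and Psat1 and Psph in 5 each. Genotypes were compared within feeder conditions through the feeder term. Each feeder condition thus served as a block with 1 array per genotype. Replicate numbers gave no further block, because each group has 1 array.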

Other observations

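Of 3 probe sets annotated to both Gcat, the partner of Tdh, and Galr3, a galanin receptor, 1 read above the median signal on all arrays. That probe set read 218.8 in cells labelled null, against 276.9 in heterozygous cells, without feeders, and 240.7 against 274.6 on feeders. Another read 11.4 against 18.7 without feeders and 9.3 against 9.8 on feeders. The dimmest lay between 1.8 and 3.7 on the 4 arrays. These values cannot be assigned to either gene.

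Dld, the lipoamide dehydrogenase that the glycine cleavage system shares with other complexes, and Lias, Lipt1 and Lipt2, which attach or make the lipoyl group, were named after their values were seen. These 4 genes had a median genotype difference (log2) of -0.12 without feeders and 0.06 on feeders. Of the 4, 1 was lower in both pairs, where 29.1% of all tested genes were. The 4 tested genes that lead from choline and sarcosine to glycine had medians of 0.19 and 0.43. Of these, 2 of 4 were higher in both pairs, where 30.5% of all tested genes were. The limma test called 0 of the genes in either group after adjustment, where 0.032% of all tested genes were called. At an unadjusted p under 0.05 it called 0 and 1, where 12.3% of all tested genes were called.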
